A study of Mus musculus with 10 samples.

Results

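The immediate early and handling stress genes examined here were Fos, Jun, Egr1, Atf3, Btg2, Dusp1, Ier2, Ier3, Klf6 and Zfp36, 10 genes taken by name, with no threshold on their values. Every probe set annotated with exactly 1 of these symbols was taken, which gave 16 of the 45037 probe sets on the array that are not controls. Of these, 10 probe sets of 8 genes had a mean of at least 4 log2 over all 10 arrays and were tested, among 14732 tested probe sets in all; both members left out, Atf3 and Ier3, and 6 probe sets in total lay under that level. The arrays measured total RNA of whole liver from 10 female mice, 1 array per animal, with values on the log2 scale from GCRMA, a method that corrects background by probe composition and normalizes between arrays.

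The animals were 5 mice homozygous for human APOE4 and 5 homozygous for human APOE3, in each case as a targeted replacement of the endogenous Apoe gene under the mouse Apoe promoter. All were on a C57BL/6 background, 3 months old, and fed a high-fat diet (41% of energy from milk fat, cholesterol added at 2 g/kg) for 6 weeks by one label and 2 months by another. The question asked of the genes is whether their hepatic levels differed between APOE4 and APOE3 animals. The sources used here give no time of day, fasting state or manner of killing.

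Immediate early genes are transcribed within minutes of a stimulus, without new protein synthesis, when MAP kinases activate factors such as SRF and CREB that already sit at their promoters. Their messenger RNAs are short-lived. In liver they are known to respond to partial hepatectomy, feeding, stress hormones, anaesthesia and the handling of the organ. Because the RNA came from whole liver, a change in level per cell and a change in the share of a cell type cannot be told apart.

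Promoters of 8 of the 10 members, all but Ier2 and Egr1, were in the RefSeq promoter table for build GRCm38.p6. The 250 bases before the annotated start were searched for 4 motifs known from early response promoters. The motifs were the CArG box bound by SRF, the cAMP response element TGACGTCA, the AP-1 site TGACTCA and the TATA box TATAAA, the last on the gene's own strand and the others on both strands. Of 32851 promoter entries, 1.47% held a CArG box, 1.55% a cAMP response element, 4.46% an AP-1 site and 7.59% a TATA box in that window. A match was found in Zfp36, Dusp1, Btg2 and Fos, 1 in each, and only these 4 windows are shown. A relation of the motifs to the measured levels was not tested. The windows lie at chr7:28379229-28379478 on the minus strand, chr17:26508473-26508722 on the minus strand, chr1:134079156-134079405 on the minus strand and chr12:85473640-85473889 on the plus strand. Capitals mark the match, which is a CArG box in Zfp36, a cAMP response element in Dusp1 and in Btg2, and a TATA box in Fos.
Zfp36: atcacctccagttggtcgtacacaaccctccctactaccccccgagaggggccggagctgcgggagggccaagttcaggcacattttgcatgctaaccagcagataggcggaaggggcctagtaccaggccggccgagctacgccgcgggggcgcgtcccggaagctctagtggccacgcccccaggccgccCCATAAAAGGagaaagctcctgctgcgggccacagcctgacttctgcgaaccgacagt
Dusp1: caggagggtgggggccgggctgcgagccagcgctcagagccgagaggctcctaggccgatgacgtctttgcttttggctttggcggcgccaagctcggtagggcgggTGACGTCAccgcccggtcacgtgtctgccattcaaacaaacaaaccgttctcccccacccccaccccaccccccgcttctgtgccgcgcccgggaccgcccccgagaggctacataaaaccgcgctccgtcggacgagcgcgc
Btg2: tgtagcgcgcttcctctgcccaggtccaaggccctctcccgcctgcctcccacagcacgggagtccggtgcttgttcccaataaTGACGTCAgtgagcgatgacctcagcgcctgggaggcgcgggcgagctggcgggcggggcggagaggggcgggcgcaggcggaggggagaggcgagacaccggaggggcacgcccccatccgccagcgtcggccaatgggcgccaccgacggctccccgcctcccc
Fos: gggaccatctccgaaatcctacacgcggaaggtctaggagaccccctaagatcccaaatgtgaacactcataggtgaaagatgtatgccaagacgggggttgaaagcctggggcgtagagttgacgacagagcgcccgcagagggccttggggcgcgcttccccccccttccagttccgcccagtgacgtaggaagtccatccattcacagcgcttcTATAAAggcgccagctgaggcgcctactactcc
The Zfp36 match began 58 bases before the start, the Dusp1 match 143, the Btg2 match 166 and the Fos match 33. In Jun, Atf3, Klf6 and Ier3 these letters were not in the window.

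None of the immediate early genes passed the adjusted threshold between genotypes. In limma, 0 of the 10 tested probe sets had an adjusted p under 0.05, against 0.0815% of all tested probe sets, and 1 had an unadjusted p under 0.05, against 8% of all (5.53% higher and 2.46% lower in APOE4). Of the 10 log2 differences, APOE4 minus APOE3, 5 were positive and 5 negative. Their median was -0.001, beside a median of 0.047 over all tested probe sets. The median size of the difference without its sign was 0.095 for the members and 0.122 for all. The ranges of the genotypes overlapped in all 16 probe sets, whereas they did not overlap in 2.02% of the tested ones (1.45% higher and 0.563% lower in APOE4).

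**Figure D1:**
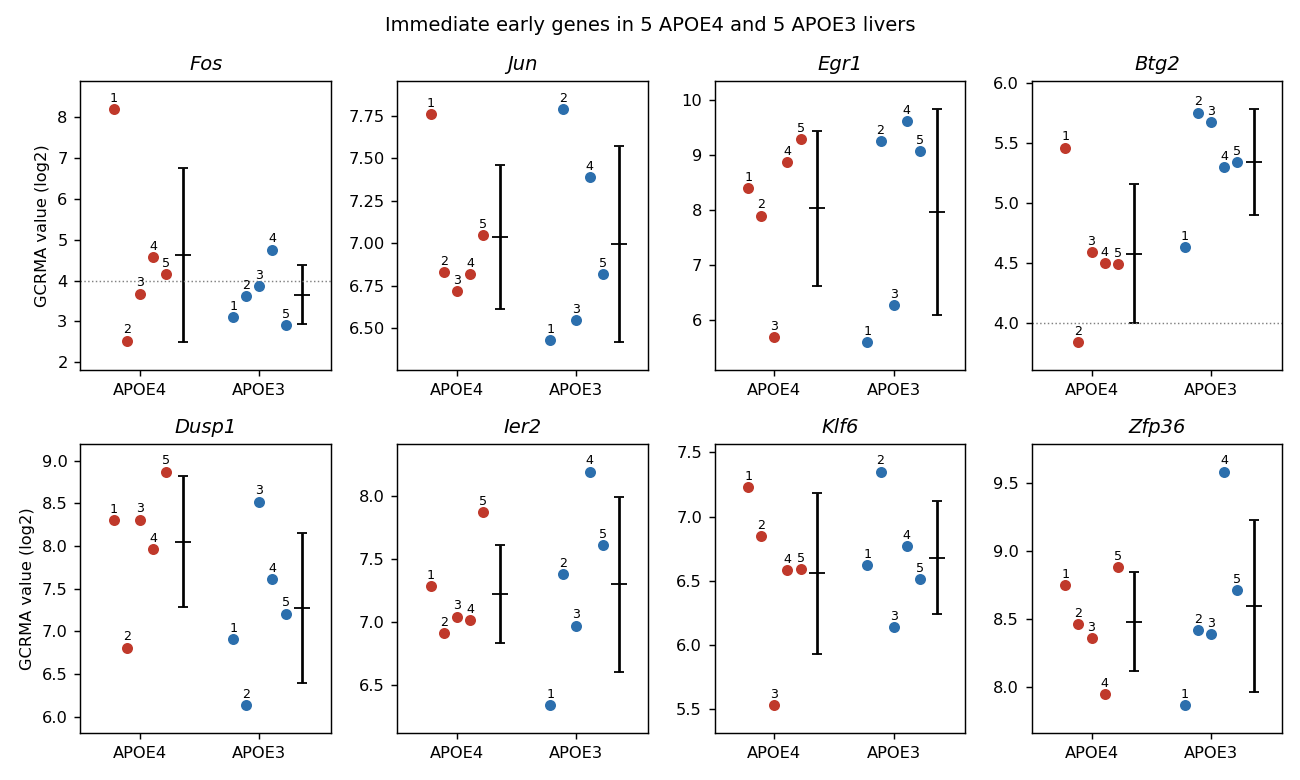
GCRMA values (log2, vertical axes differ between panels) of the 8 tested immediate early genes, 1 probe set each, in 5 APOE4 livers (red) and 5 APOE3 livers (blue); numbers are replicate labels, black bars the mean ± SD, and the dotted line, where drawn, the level of 4 below which values have no sure scale. The ranges of the genotypes overlap in each panel, and APOE4 replicate 1 stands at 8.20 for Fos while every other liver is under 5.

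Among the transcription factors, Fos, whose protein pairs with Jun to form the factor AP-1, had values of 8.20, 2.53, 3.68, 4.58 and 4.16 log2 in APOE4 livers, against 3.11, 3.63, 3.86, 4.76 and 2.91 log2 in APOE3 livers. One liver, APOE4 replicate 1, stood far above the rest, and 2 APOE4 and 4 APOE3 livers were under 4, near background. The mean was 4.63 ± 2.14 in APOE4 and 3.66 ± 0.73 in APOE3 (SD, n = 5 each), a log2 difference of 0.98 (SE 0.86, adjusted p = 0.79 in limma). Without APOE4 replicate 1 the difference in means was 0.085 (3.74 against 3.66), and Fos then fell under the level for testing. It was thus tested only through that liver.

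Jun, the partner of Fos, was measured by 2 tested probe sets that moved alike over the arrays (Pearson r = 0.83, n = 10). By the one with the higher mean it was at 7.76, 6.83, 6.72, 6.82 and 7.05 log2 in APOE4 livers, against 6.43, 7.79, 6.55, 7.39 and 6.82 log2 in APOE3 livers. By the second it was at 5.64, 5.27, 5.01, 5.42 and 5.31 log2 in APOE4 livers, against 5.21, 6.04, 4.82, 5.30 and 5.03 log2 in APOE3 livers. By both, the highest livers were APOE3 replicate 2 and APOE4 replicate 1. The ranges overlapped by both, and by the second probe set APOE4 livers spanned 0.63 log2 and APOE3 livers 1.21 log2. The log2 difference was 0.04, with a 95% interval of -0.58 to 0.66, and 0.05 by the second probe set, with an interval of -0.40 to 0.51 (adjusted p = 0.979 and 0.962 in limma).

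Egr1, a zinc finger factor induced by growth factors and stress, had the largest SD among the tested members when pooled over the genotypes, although within APOE4 alone Fos spread more widely. It was at 8.40, 7.90, 5.69, 8.88 and 9.29 log2 in APOE4 livers, against 5.60, 9.25, 6.28, 9.62 and 9.07 log2 in APOE3 livers. One APOE4 liver and 2 APOE3 livers lay under 6.5, the other 7 at 7.90 or more, and the highest liver exceeded the lowest 12.1-fold among APOE4 and 16.3-fold among APOE3 animals. The means were 8.03 ± 1.41 in APOE4 and 7.96 ± 1.88 in APOE3 (SD, n = 5 each). The 95% interval of the log2 difference was -1.89 to 2.04 (adjusted p = 0.989 in limma).

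Klf6, a Krüppel-like factor of injured tissue, had 2 tested probe sets and 3 under the level for testing. By the highest it was at 7.23, 6.85, 5.53, 6.58 and 6.59 log2 in APOE4 livers, against 6.62, 7.35, 6.14, 6.77 and 6.51 log2 in APOE3 livers. By the second it was at 5.10, 4.81, 3.96, 5.09 and 4.55 log2 in APOE4 livers, against 4.44, 5.57, 4.22, 4.63 and 4.89 log2 in APOE3 livers. By both, APOE4 replicate 3 was the lowest liver and APOE3 replicate 2 the highest. The log2 difference was -0.12 (SE 0.30, adjusted p = 0.937) by this probe set and -0.04 (SE 0.28, adjusted p = 0.978) by the second in limma, and both probe sets moved alike over the arrays (r = 0.87, n = 10). The 3 other Klf6 probe sets ranged from 2.15 to 4.20 log2 in APOE4 and from 1.93 to 3.97 log2 in APOE3 livers, and the single value above 4 was that of APOE4 replicate 1.

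Atf3, a stress-induced factor of the ATF/CREB family, was near background in 9 of the 10 livers. Its values were 5.16, 3.67, 3.55, 3.48 and 3.42 log2 in APOE4 livers, against 3.42, 3.97, 3.56, 3.92 and 3.72 log2 in APOE3 livers. The single liver above 4 was APOE4 replicate 1, the one with high Fos. The difference in means was 0.14 with that liver and -0.19 without it.

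Of the genes that restrain the response, Dusp1 encodes a phosphatase that switches MAP kinases off and is itself induced by glucocorticoids. It was at 8.30, 6.81, 8.31, 7.96 and 8.87 log2 in APOE4 livers, against 6.91, 6.14, 8.52, 7.61 and 7.21 log2 in APOE3 livers. Of the 5 APOE4 livers 4 lay at 7.96 or above, as did 1 of the 5 APOE3 livers, and the ranges overlapped. The log2 difference was 0.77 (SE 0.45, 95% interval -0.21 to 1.76, adjusted p = 0.688 in limma).

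Zfp36 encodes tristetraprolin, which binds AU-rich elements of early and cytokine messenger RNAs and speeds their decay. It was at 8.75, 8.46, 8.36, 7.95 and 8.88 log2 in APOE4 livers, against 7.87, 8.42, 8.39, 9.58 and 8.71 log2 in APOE3 livers. Both the lowest and the highest liver were APOE3 animals, replicates 1 and 4, and the APOE4 livers lay between them. The log2 difference was -0.11 (SE 0.28, adjusted p = 0.939 in limma).

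Btg2, an antiproliferative protein that recruits the CCR4-NOT deadenylase, had the smallest p among the members. It was at 5.46, 3.84, 4.59, 4.50 and 4.49 log2 in APOE4 livers, against 4.63, 5.75, 5.67, 5.30 and 5.34 log2 in APOE3 livers. APOE4 replicate 1 lay among the 4 higher APOE3 livers and APOE3 replicate 1 among the APOE4 livers, so the ranges overlapped. The means were 4.58 ± 0.58 in APOE4 and 5.34 ± 0.44 in APOE3 (SD, n = 5 each), a log2 difference of -0.76 (SE 0.29) with an unadjusted p of 0.0219 and an adjusted p of 0.582 in limma. Its second probe set was at 3.58, 3.12, 2.94, 3.17 and 3.17 log2 in APOE4 livers, against 3.17, 3.57, 3.53, 3.89 and 3.43 log2 in APOE3 livers. All of these are under 4, and the difference of -0.32 had an adjusted p of 0.598 in limma without a filter. Across the arrays Btg2 was higher where the array median was higher (Pearson r = 0.76, permutation p = 0.0135, Spearman rho = 0.75, permutation p = 0.0178, and r = 0.74 without the 2 arrays farthest from the median). This did not pass adjustment over 48 such relations (adjusted p = 0.628), and the array median itself differed between genotypes, at 2.63 ± 0.0091 in APOE4 and 2.66 ± 0.015 in APOE3 (SD, n = 5 each, exact permutation p = 0.00794, two-sided). After renewed quantile normalization the Btg2 difference was -0.79 (adjusted p = 0.577), and after centring of the arrays the log2 difference was -0.73 and the adjusted p 0.472 in limma.

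Ier2, a nuclear early response protein, was at 7.28, 6.91, 7.04, 7.01 and 7.87 log2 in APOE4 livers, against 6.34, 7.38, 6.97, 8.19 and 7.61 log2 in APOE3 livers. As with Zfp36, the lowest and the highest liver were APOE3 replicates 1 and 4. The log2 difference was -0.08 (SE 0.31, adjusted p = 0.962 in limma). Ier3, an early response protein linked to cell survival, stayed under 4 on all 10 arrays, from 2.77 to 3.44 in APOE4 and from 2.80 to 3.10 in APOE3, and was not tested.

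The members varied widely between animals of the same genotype. The SD within a genotype, pooled over APOE4 and APOE3, was 0.530 log2 at the median of the 10 member probe sets that were tested, beside 0.231 over all tested probe sets. All 10 lay above that overall median, from 0.364 for the second Jun probe set to 1.66 for Egr1, and 9 lay above 90% of all tested probe sets. Since spread depends on level, each was also set among the 500 probe sets nearest to it in mean. Fos and Egr1 then lay above all 500, Dusp1 above 98.4% and Zfp36 above 95%, and 7 of the 10 lay above 90% of their neighbours. Fos is counted here, but it passed the filter only through APOE4 replicate 1, whose high value also enters its SD. Its rank is thus given no weight. These values describe probe sets chosen by name and were not tested.

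**Figure D2:**
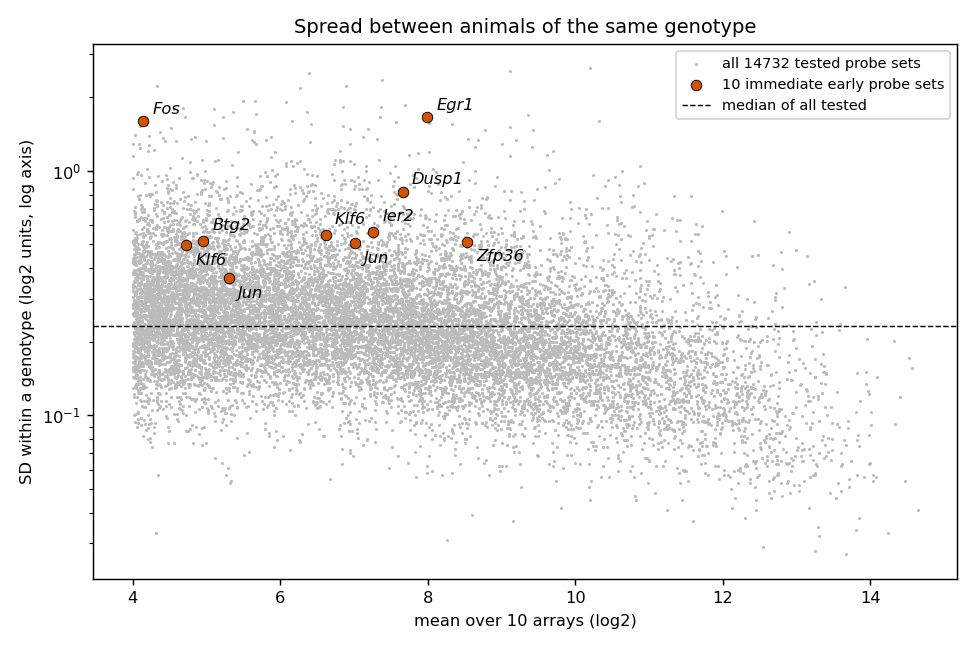
SD between animals of the same genotype (vertical log axis, log2 units) against the mean over 10 arrays (log2) for each of 14732 tested probe sets (grey) and the 10 tested immediate early probe sets (orange); the dashed line is the median of all. All 10 lie above the median of 0.231, and Egr1 and Fos are highest among them at 1.66 and 1.59. Fos passed the filter only through APOE4 replicate 1, whose high value also enters its SD.

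Certain livers were high or low for many members at a time. APOE4 replicate 1 was above a gene's mean over the 10 arrays in 8 of 8 members and deviated by 0.90 log2 on average, a mean drawn up by Fos at 4.05, with a median deviation of 0.56. Fos is among the 8 only through this liver. APOE3 replicate 4 was above the gene's mean in 7 of 8, with a mean deviation of 0.63 and a median of 0.49, and held the highest value of 3 members, Egr1, Ier2 and Zfp36. On the low side, APOE4 replicates 2 and 3 were each above the mean in 1 of 8 members, with mean deviations of -0.51 and -0.53. APOE3 replicate 1 was above it in 1 of 8, deviated by -0.84 and held the lowest value of 4 members. Each genotype thus held livers at both ends.

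**Figure D3:**
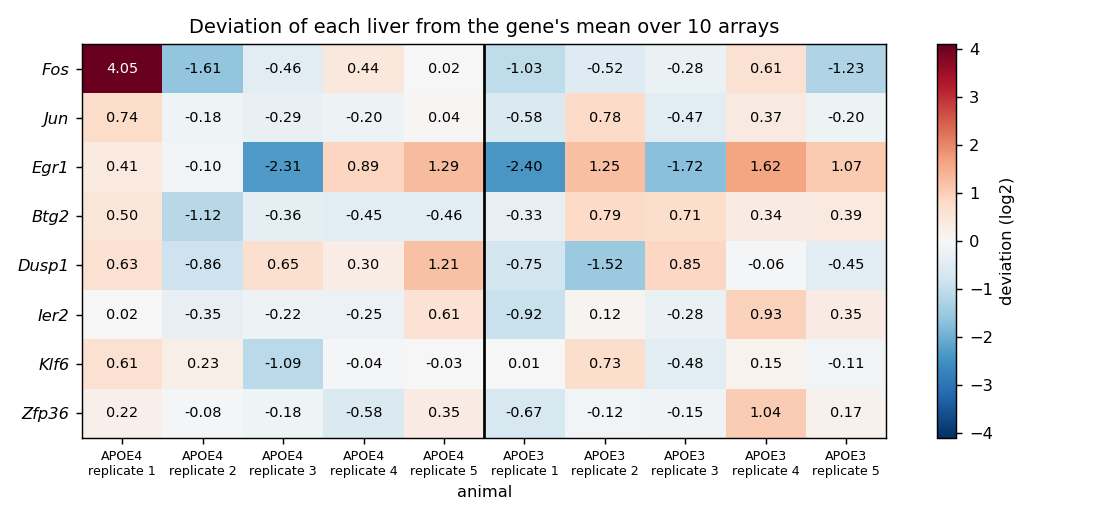
Deviation of each liver (columns, 5 APOE4 livers left and 5 APOE3 livers right) from the mean of each gene over 10 arrays (rows, log2; red above, blue below). APOE4 replicate 1 is above 0 in all 8 genes, led by Fos at 4.05, and APOE3 replicate 1 is above 0 only in Klf6, at 0.01.

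Some markers of leukocytes were also highest in APOE3 replicate 4. The neutrophil markers S100a8 and S100a9 peaked there at 7.001 and 5.426 log2, and the pan-leukocyte marker Ptprc at 9.01 log2. Among leukocyte markers under 4 on all arrays, Ngp, Cd3e and Cd79a peaked in other livers, Camp and Nkg7 in APOE3 replicate 4. Of 8 Kupffer cell markers, 7 peaked in that liver, and their summed level there was 13.74 log2, against 12.43 to 13.22 in APOE4 livers and 12.59 to 13.00 in the other APOE3 livers. No Kupffer marker was under 4 on all arrays, but Marco was above 4 only in APOE3 replicates 2 and 4 and APOE4 replicate 4. All 8 log2 differences between genotypes were negative, with a median of -0.25 and 0 passing in limma. The APOE3 means include replicate 4, where 7 of the 8 markers peaked, so the shared sign is given no weight. For Csf1r that liver was at 10.22, the other APOE3 livers were at 9.20, 9.21, 9.15 and 9.14, and the APOE4 mean was 9.32. The differences without that liver were not tested. The mean of Marco was 3.38 in APOE4 and 5.28 in APOE3. It thus passed the filter of 4 through the APOE3 livers, and its difference is given no weight. Over the 10 arrays the summed level and Zfp36 gave Pearson r = 0.48 (permutation p = 0.166) and Spearman rho = 0.13 (permutation p = 0.732), with an adjusted p of 0.628 over 48 relations, and r was -0.65 without the 2 arrays farthest from the median marker level. With those arrays left out, r with the Kupffer sum remained positive for Fos (0.53, then 0.34), Jun (0.54, then 0.26), Egr1 (0.37, then 0.08), Btg2 (0.47, then 0.45) and Klf6 (0.44, then 0.42). It turned to -0.36 for Ier2, at 0.37 over all arrays, and was negative throughout for Dusp1 (-0.11, then -0.40), and none of these passed adjustment. The part of these cells in the values of that liver was not tested further. APOE4 replicate 1, the liver with high Fos and Atf3, had the second highest Kupffer sum, 13.22.

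The members did not all vary together. Among 28 pairs of the 8 tested members, 24 had a positive Pearson r over the 10 arrays and 4 a negative one, with a median of 0.31 and a range of -0.50 to 0.90. Only Ier2 and Zfp36 passed adjustment over the 28 pairs, with r = 0.90 (permutation p = 0.00061, adjusted p = 0.0171, two-sided). Their Spearman rho was 0.79 (permutation p = 0.00874, adjusted p = 0.104), and r was 0.74 without the 2 arrays farthest from the median, APOE3 replicates 1 and 4. As deviations from the genotype means, permuted within genotype, they gave r = 0.90 with an adjusted p of 0.1. Without APOE3 replicate 4 alone r was 0.84 and the adjusted p 0.118, so the call rests on that liver.

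Below this pair came Egr1 with Ier2 (r = 0.78, permutation p = 0.00603, adjusted p = 0.0844) and Jun with Klf6 (r = 0.72, permutation p = 0.0162, adjusted p = 0.151). Egr1 and Ier2 passed by rank, with a Spearman rho of 0.88 (permutation p = 0.00167, adjusted p = 0.0468), and r was 0.71 without the 2 arrays farthest from the median of Egr1. For Jun and Klf6, rho was 0.76 (permutation p = 0.0147, adjusted p = 0.104), and r was 0.37 without APOE3 replicate 2 and APOE4 replicate 1, the farthest arrays for Jun, and 0.78 without APOE3 replicate 2 and APOE4 replicate 3, the farthest for Klf6. Leaving out single arrays gave r from 0.61 to 0.85, and without APOE4 replicate 3 the pair passed. The values of Egr1 leave a gap between 6.28 and 7.90 log2, and every r with Egr1 spans it.

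Dusp1 held all 4 negative pairs, with Jun (r = -0.17), Egr1 (-0.12), Btg2 (-0.04) and Klf6 (-0.50), none of which passed. Most of these signs rested on APOE3 replicate 2, without which r was 0.27 with Jun, 0.07 with Egr1, 0.32 with Btg2 and -0.29 with Klf6. On deviations from the genotype means r with Btg2 was 0.37. The lowest, with Klf6, had a permutation p of 0.144 and an adjusted p of 0.403. The liver with the lowest Dusp1, APOE3 replicate 2 at 6.14 log2, held the highest Jun, Btg2 and Klf6 at 7.79, 5.75 and 7.35 log2. Fos and Jun, partners in AP-1, gave r = 0.61 (permutation p = 0.0519, adjusted p = 0.254, rho = 0.39), with 0.32 without APOE4 replicate 1 and 0.83 without APOE3 replicate 2.

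**Figure D4:**
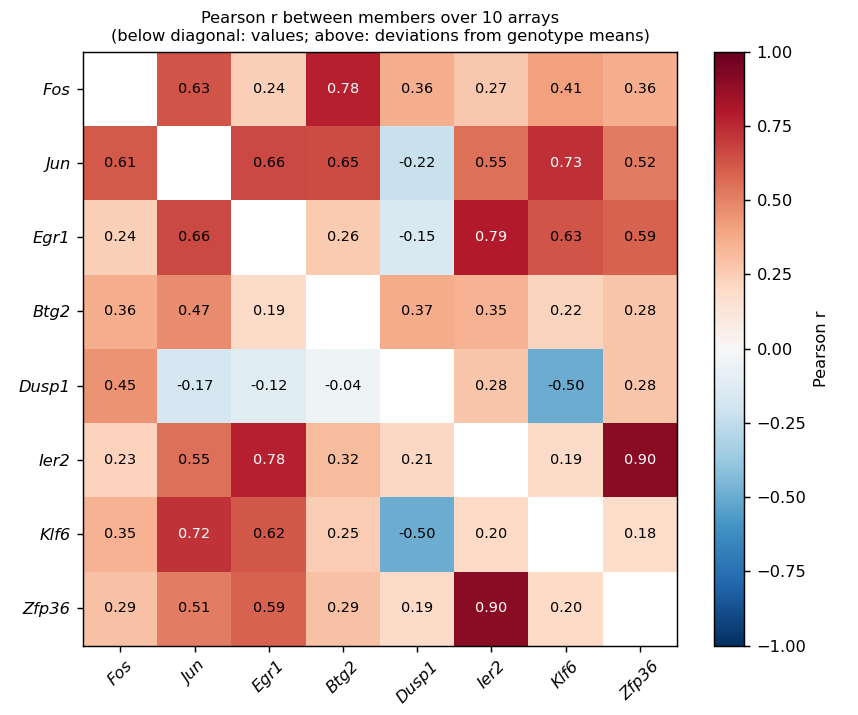
Pearson r between each pair of the 8 tested members over 10 arrays, below the diagonal from the values and above it from deviations from the genotype means (red positive, blue negative). Ier2 with Zfp36 is the strongest pair at 0.90 in both, and the 4 negative values below the diagonal all involve Dusp1.

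The genes outside the set whose values most resembled each member over the 10 arrays were sought among 8527 genes, so that high values of r are to be expected from the search alone. The nearest to Dusp1 was Nfil3, a basic leucine zipper repressor of the circadian system, with r = 0.97 and rho = 0.95. Nfil3 was at 7.85, 6.74, 8.13, 8.24 and 8.72 log2 in APOE4 livers, against 6.87, 6.32, 8.55, 7.49 and 6.87 log2 in APOE3 livers. Like Dusp1 it was lowest in APOE3 replicate 2 and highest in APOE4 replicate 5 and APOE3 replicate 3. Nearest to Fos was Stk40 (r = 0.97), to Jun Morf4l2 (0.94), to Egr1 Zcchc2 (0.96), to Btg2 Myh10, a non-muscle myosin (0.93), to Ier2 Zcchc7 (0.96), to Klf6 Cenpj (0.92) and to Zfp36 Wdr1, an actin filament cofactor (0.95).

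**Figure D5:**
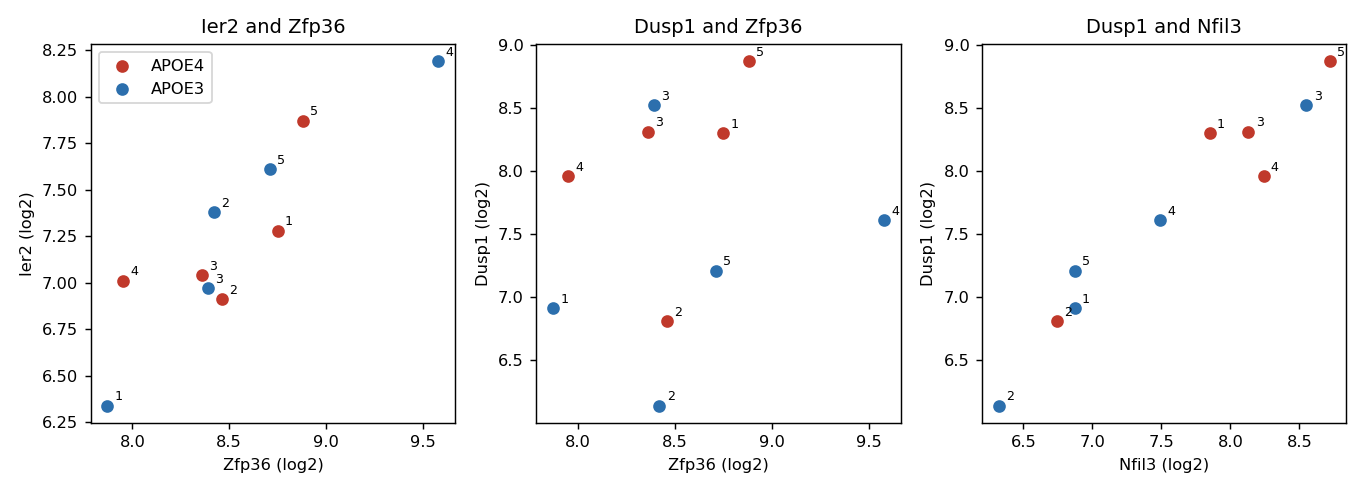
Values per liver (log2) of Ier2 against Zfp36, Dusp1 against Zfp36 and Dusp1 against Nfil3 in 5 APOE4 livers (red) and 5 APOE3 livers (blue), with replicate labels. Ier2 follows Zfp36 (r = 0.90), with APOE3 replicates 1 and 4 at the ends, Dusp1 does so little (r = 0.19), and Dusp1 follows Nfil3 (r = 0.97), the gene most like it among 8527.

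The mean deviation of the 8 members was not scaled by gene, so Egr1 and Fos, with the largest SD at 1.66 and 1.59, weigh most in it. Against this mean, the highest r belonged to Rrbp1, a ribosome-binding protein of the endoplasmic reticulum, and the syntaxin gene Stx4a (0.95 each), then Pml, Sec24c and Dgkz (0.94 each). The lowest belonged to Smim26 (-0.95), Tm2d1 (-0.93), the respiratory complex I gene Ndufb9 (-0.92), Ccny (-0.92) and Mospd1 (-0.92). Ndufb9 ranged only from 12.22 to 12.44 log2 in APOE4 and from 12.23 to 12.54 in APOE3 livers, so its pattern is one of small differences. Stx4a likewise ranged only from 8.48 to 8.88 log2 over all livers.

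The wider early response was followed in 7 lists of 118 further genes, of which 111 had a probe set of their own and 80 passed the filter. In limma 0 of the 80 passed and 3, or 3.75%, had an unadjusted p under 0.05, below the 8% of all tested probe sets. Of the log2 differences 39 were positive and 41 negative, and the smallest adjusted p was 0.404.

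The smallest p among the 80 belonged to Srf, the serum response factor that binds the CArG box. Srf was at 4.52, 4.17, 4.25, 4.74 and 4.46 log2 in APOE4 livers, against 3.70, 4.01, 4.07, 3.91 and 3.96 log2 in APOE3 livers. All 5 APOE4 livers lay above all 5 APOE3 livers, but its mean was 4.43 in APOE4 and 3.93 in APOE3, so that it passed the filter of 4 through the APOE4 livers, and neither the separation nor its test is given weight. The log2 difference was 0.50 (SE 0.12, adjusted p = 0.404 in limma). In its list of MAP kinases, SRF and CREB, 0 of 17 tested genes passed, 10 were positive and 7 negative, and the median was 0.018. The kinase genes with the next smallest p were Map2k1 at 0.25 (SE 0.11, adjusted p = 0.612) and Mapk9 at -0.16 (SE 0.088, adjusted p = 0.681).

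Among AP-1 and small Maf partners 0 of 6 tested genes passed, with 2 positive and 4 negative and a median of -0.03. Atf2 was at -0.10, Fosl2 at 0.20 and Junb at -0.23, each log2 difference with an adjusted p of 0.854 or more in limma. Of the other early transcription factors 0 of 10 passed, with 6 positive and 4 negative and a median of 0.08. Klf10, induced by TGF-beta, was at 0.56 (SE 0.26, adjusted p = 0.63), the inhibitor of bHLH factors Id3 at 0.46 and the Notch target Hes1 at 0.56.

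Other early effectors and feedback genes gave 0 calls among 27, with 12 positive and 15 negative and a median of -0.16. The smallest p belonged to Odc1, the first enzyme of polyamine synthesis, at -0.34 (SE 0.11, unadjusted p = 0.0104, adjusted p = 0.544 in limma). It was 10.13 ± 0.18 log2 in APOE4 and 10.47 ± 0.14 in APOE3 (SD, n = 5 each). The survival gene Mcl1 was at -0.27 and Zfp36l1, a relative of Zfp36, at 0.31. Of the deadenylation and decapping partners of Zfp36 and Btg2, 0 of 8 passed, with 5 positive and 3 negative and a median of 0.07. Cnot8 was at 0.20, Cnot6l at 0.29 and Dcp1a at 0.16.

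Glucocorticoid-linked stress genes gave 0 calls among 10, with 4 positive and 6 negative and a median of -0.10. The clock repressor Per1, which glucocorticoids induce, was at -0.57 (SE 0.38, adjusted p = 0.724 in limma), Klf9 at -0.18 and the kinase gene Sgk1 at -0.26. Of 8 inflammatory early transcripts 6 were under 4 on all arrays, among them Tnf, Il1b and Il6, and 2 were tested. The adhesion molecule Icam1 was at -0.34 and the neutrophil attractant Cxcl1 at -0.49, neither passing.

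Cxcl1 was at 8.73, 6.85, 5.13, 6.56 and 6.22 log2 in APOE4 livers, against 6.16, 8.28, 6.50, 8.80 and 6.20 log2 in APOE3 livers. Its 3 high livers, APOE4 replicate 1 and APOE3 replicates 2 and 4, were also the 3 highest by the Jun probe set with the higher mean. By the second Jun probe set APOE4 replicate 1 and APOE3 replicate 2 were again the highest, but APOE3 replicate 4, at 5.30 log2, lay below APOE4 replicates 4 and 5. The likeness was not particular to Jun. Pearson r with Cxcl1 over the 10 arrays was 0.84 for Jun, 0.80 for Klf6, 0.59 for Fos and 0.58 for Egr1. It was 0.54 for Zfp36, 0.50 for Btg2, 0.44 for Ier2 and -0.26 for Dusp1, and none of these was tested.

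The spread within a genotype was also summarised for each list. The median SD was 0.954 log2 for the 2 tested inflammatory transcripts, 0.590 for glucocorticoid-linked genes, 0.471 for AP-1 and small Maf partners, 0.449 for other effectors and feedback genes and 0.437 for other early transcription factors. It was 0.225 for MAP kinases, SRF and CREB and 0.164 for deadenylation and decapping partners, beside 0.231 over all tested probe sets. These medians were not tested against each other.

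As checks of the arrays, the hepatocyte markers Alb, Ttr, Apoa1, Cps1, Hnf4a and Fgb lay above 10 log2 in every liver, while the single probe set of Ass1 that was used lay between 3.02 and 4.12. Of 4 neutrophil markers 2, Ngp and Camp, were under 4 on all arrays, and the summed level of the 4 ranged from 5.38 to 6.22 log2 in APOE4 and from 5.87 to 7.49 log2 in APOE3 livers. The other 2, S100a8 at -1.01 (unadjusted p = 0.0186) and S100a9 at -0.62 (unadjusted p = 0.0344), were lower in APOE4 by log2 difference without passing adjustment in limma (adjusted p = 0.58 and 0.588). The mean of S100a9 was 3.94 in APOE4 and 4.56 in APOE3. It thus passed the filter of 4 through the APOE3 livers, and its test is given no weight. The stellate cell marker Lrat was at 0.75 (unadjusted p = 0.00378, adjusted p = 0.452) and the endothelial marker Cdh5 at -0.34 (unadjusted p = 0.0133, adjusted p = 0.565) in limma, neither passing. The other tested stellate cell markers, Col3a1 and Reln, were at 0.007 and -0.007. Of the 6 tested endothelial markers 3 were positive and 3 negative, with a median of 0.03. Of 4 lymphocyte markers 3 were under 4 throughout. The part of these cells in the members' values was not tested. RNA integrity was read from the Actb controls, where the probe set at the 3' end exceeded that at the 5' end by 2.64 ± 0.20 in APOE4 and 2.68 ± 0.37 log2 in APOE3 (SD, n = 5 each, exact permutation p = 0.881, two-sided). In 48 relations of the 8 members to RNA integrity, array median and marker levels, 0 passed adjustment and 2 had an unadjusted permutation p under 0.05. Labels give separate animals but no batch, so none was tested.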

How the data were processed

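The submitters' processing notes name GCRMA 2.12.1 and R 2.7.1, from which the authors' deposited log2 values came; any probe filter goes unstated in the sources used here. Biotin-labelled RNA from 10 livers was read on 1-colour arrays, and the value table had 0 columns of no sample. Groups and replicate numbers came from the sample titles. Of 45101 probe sets, 64 controls were left out. The platform annotation gave 34958 probe sets 1 symbol, 932 several and 9211 none.

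Genotypes were compared as APOE4 minus APOE3 by lmFit and eBayes of limma 3.58.1 under R 4.3.3 (two-sided, no covariate) over 14732 probe sets with a mean of at least 4, with Benjamini-Hochberg adjustment and a threshold of 0.05. Correlations used Python 3.11.15 and scipy 1.17.1 with 100000 permutations, giving two-sided p-values. Procedures were tested on simulated data.

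The members and lists were chosen with earlier results of these data known. Named were all members, per list the genes that passed or else the 3 with the smallest p, the 5 genes most and 5 least like the members' mean, and the nearest gene to each member. Lists used the probe set with the highest mean per gene. The relations to array checks, and the other values given for Cxcl1, Nfil3 and single marker genes, were added after seeing the data. Genes that no probe set names alone were not analysed here. With 5 arrays a genotype, precision was limited by their number. The SE of the log2 difference was 0.142 at the median of all tested probe sets. For the tested members it was larger, from 0.207 for the second Jun probe set to 0.893 for Egr1.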

Additional observations from a re-analysis of the deposited data

Results flagged for a closer look

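Among 72 sets of 5 livers, 4 had 1 liver far from the others by Dixon's criterion. Chance flags about 1 in 20 independent sets of normal values. These sets share livers and in part genes, and the pathway genes among them were picked by small p. The count of flags thus cannot be compared with chance. Atf3 was at 5.16 log2 in APOE4 replicate 1, and the next APOE4 liver was at 3.67. A low probe set of Klf6, under the level for testing, was at 4.20 in the same liver, with the next at 3.30. The kinase gene Map2k1 was at 7.49 in APOE3 replicate 4, below the next APOE3 liver at 7.87. Mapk9 was at 8.00 in APOE4 replicate 1, below the next APOE4 liver at 8.14. The high Fos value of APOE4 replicate 1 did not meet the criterion, because the other APOE4 livers spread widely too.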

How the results depend on the processing

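Calls among immediate early probe sets and among pathway genes were 0 under every alternative tried. The 12 calls over all probe sets became 5 with a mean of at least 6, 7 with 1 probe set per gene, and 8 to 14 without 1 animal. The replicate number as a block gave 11 calls over all probe sets and 0 among the members; the labels give the numbers no shared litter, batch or day, 3 of 5 same-numbered pairs of livers deviated together with r above 0.1, and 2 of 5 APOE4 livers correlated best with their own number. The sign of the Jun difference turned to -0.034 with array weights and -0.015 with renewed quantile normalization, and that of Egr1 to -0.255 with array weights; the cause was not tested. Without 1 animal the log2 difference ranged from -0.139 to 0.241 for Jun and from -0.062 to 0.241 for its second probe set, from -0.520 to 0.657 for Egr1, from -0.318 to 0.146 for Ier2, from -0.291 to 0.135 and from -0.176 to 0.160 for Klf6 and from -0.292 to 0.135 for Zfp36. Btg2 (-0.980 to -0.574) and Dusp1 (0.488 to 1.082) kept their sign in every fit that tested them. Fos stayed positive where it was tested, from 0.791 to 1.502 in the 9 such fits without 1 animal. Without APOE4 replicate 1 it fell under the filter and its difference in means was 0.085, so the size of the Fos difference rests on that liver. The Fos difference of 0.98 became 0.551 with array weights and 1.502 without APOE4 replicate 2, and the Dusp1 difference of 0.77 became 0.488 without APOE3 replicate 2. The 1 pair of members that varied together became 0 on deviations from the genotype means and 0 to 3 without 1 animal, with 0 without APOE3 replicate 4, 3 without APOE4 replicate 3 and 2 without APOE4 replicate 4. The median SD of the members was 0.5 to 0.567 without 1 animal. Values under 4 have no sure scale, which limits Fos, Atf3 and Ier3.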

Other observations

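Among the glucocorticoid-linked genes, Igfbp1, a secreted binder of insulin-like growth factors, spread widely between animals. It was at 9.31, 7.76, 10.25, 10.08 and 10.28 log2 in APOE4 livers, against 7.29, 8.51, 10.95, 9.85 and 9.91 log2 in APOE3 livers. Of the 80 relations between the 8 members and these 10 genes, computed after seeing the data, 0 passed adjustment and 10 had an unadjusted permutation p under 0.05. The relations share members and genes and are not independent, so this count cannot be set against a chance share. The smallest unadjusted p belonged to Klf6 with Sgk1, then Fkbp5 with Ier2. Dusp1 and Igfbp1 gave Pearson r = 0.76 over the 10 arrays (permutation p = 0.0106, adjusted p = 0.17) and Spearman rho = 0.85 (permutation p = 0.00299, adjusted p = 0.239), with r = 0.80 without the 2 arrays farthest from the median of Dusp1 and 0.81 on deviations from the genotype means. Dusp1 with Tat, a glucocorticoid-induced enzyme of tyrosine breakdown, gave r = 0.67 (permutation p = 0.0397, adjusted p = 0.381), rho = 0.71 (permutation p = 0.027, adjusted p = 0.313), 0.62 without those arrays and 0.84 on deviations. Klf6 gave r = -0.81 with Sgk1 (permutation p = 0.00344, adjusted p = 0.17), rho = -0.72 (permutation p = 0.0233, adjusted p = 0.313), -0.73 without the 2 arrays farthest from the median of Klf6 and -0.89 on deviations. Fkbp5, a cochaperone of the glucocorticoid receptor, gave r = 0.79 with Ier2 (permutation p = 0.00616, adjusted p = 0.17, rho = 0.68, and 0.69 without the 2 arrays farthest from the median of Ier2) and 0.77 with Egr1 (permutation p = 0.0106, adjusted p = 0.17, rho = 0.76, and 0.62 likewise for Egr1). Zbtb16 with Ier2 gave r = 0.77 (permutation p = 0.00851, adjusted p = 0.17, rho = 0.66, and 0.53 without those arrays). The rest of the 10 were Zfp36 with Zbtb16 (r = 0.67, permutation p = 0.0297), Klf6 with Tat (-0.64, 0.0429), Klf6 with Tsc22d3 (-0.64, 0.0422) and Jun with Sgk1 (-0.64, 0.049). Each had an adjusted p of 0.381, and Tat thus ran opposite to Klf6 while it ran with Dusp1. Dusp1 gave r of -0.03 with Fkbp5, -0.09 with Per1, 0.05 with Klf9, 0.14 with Sgk1, -0.52 with Nr3c1, 0.60 with Ddit4, 0.47 with Tsc22d3 and 0.38 with Zbtb16, each with an adjusted p of 0.381 or more.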
